A study of Mus musculus with 12 samples.

Results

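The T cell quiescence regulators described here are 9 genes that restrain growth, cell cycle entry or mRNA stability in resting lymphocytes. They were chosen by gene symbol, each symbol matched 1 row, and they make up 9 of the 13780 genes in the count table. By role they are the forkhead factors Foxo1, Foxo3 and Foxp1, the zinc finger factor Klf3, the PI3K inhibitor Pik3ip1, the mTORC1 inhibitor Tsc1, and the deadenylation adaptors Btg1, Btg2 and Tob1. All 9 passed the filter on low counts.

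RNA was sequenced from CD8+ T cells of adult wild type C57BL/6J mice, purified from spleen by positive magnetic bead selection. Naïve cells (n = 4) were not activated, and their labels carry no donor tag that would tie them to the mice of the activated cells. Activated cells received anti-CD3/CD28 beads and IL-2 for 72 h, either in plain media (media, n = 4) or with 40 mM sodium lactate (NaLac, n = 4). The control for NaLac is plain media and not sodium chloride, so that added sodium and added lactate cannot be told apart. The activated libraries came from 5 donors, 3 of which gave both a media and a NaLac library. The numbers given to the libraries form a low run of 8 and a high run of 4, the latter being naïve 4, media 4, NaLac 3 and NaLac 4. The labels do not say what the runs stand for.

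A resting T cell is held in a small, slowly translating state by active repression. FOXO factors stay in the nucleus while PI3K and AKT signalling is low, and there they keep up genes for homing, survival and cell cycle arrest. After receptor engagement AKT phosphorylates FOXO proteins and they leave the nucleus, while the TSC complex, which holds the GTPase RHEB inactive, is itself inhibited and mTORC1 is released. BTG and TOB proteins recruit the CCR4-NOT deadenylase to mRNAs and so shorten poly(A) tails. These steps are mostly set on the protein, which RNA counts do not show.

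Each library held 14726904 to 21478137 counts. Values are CPM, counts divided by the TMM-scaled library size, unless TPM (which also correct for gene length) are named, and a CPM is a share of a library that does not show the total RNA of a cell. The 6 CD8 T cell markers summed to 1991 to 4036 CPM in naïve, 3095 to 3879 in media and 2303 to 2901 in NaLac libraries. The naïve libraries also held transcripts of other spleen cells. The 8 B cell markers summed to 2287 to 5257 CPM in naïve, 430.4 to 699 in media and 248 to 331 in NaLac libraries. The 12 myeloid and dendritic cell markers summed to 2020.0 to 3690.4, 161 to 201 and 136 to 182 CPM in the same order, of which Xcr1 was at 0 counts in all activated libraries. The 5 red cell markers measured summed to 85.1 to 3495 CPM in naïve libraries and to 1.90 or less in activated ones, the 4 NK cell markers to 6.41 to 13.7 and 0.871 or less, and the 3 CD4 T cell markers to 30.3 to 52.0 and 9.41 or less. All 8 B cell, 12 myeloid and dendritic cell, 5 red cell, 4 NK cell and 3 CD4 T cell markers were lower in media than in naïve libraries at an adjusted p of at most 0.01. They move with every comparison against naïve cells below, and their part in those results was not tested. In bulk RNA, fewer cells of a type and less RNA per cell cannot be told apart.

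The first question was how the regulators changed with activation alone. Of the 9 genes, 7 fell and 1 rose in media against naïve cells (edgeR's quasi-likelihood test, Benjamini-Hochberg adjusted p of at most 0.01), where 57.5% of all 13767 tested genes were called in either direction, 29% as lower and 28.5% as higher. The largest falls were those of Klf3, Btg2, Btg1 and Tob1. Foxo3 rose, and Pik3ip1 did not pass. The median log2 fold change of the 9 was -1.01, beside -0.03 over all tested genes.

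The second question was what NaLac added. Of the 9 genes, 4 passed the test in NaLac against media, and these were Pik3ip1, Foxo3, Tsc1 and Foxo1, all lower in NaLac. The background was 25.1% of all tested genes called in either direction and 11.1% as lower. The NaLac and media libraries did not overlap for 5 of the 9 genes, all lower in NaLac, where 44.7% of all genes did not overlap in either direction and 21.5% were lower without overlap. The median log2 fold change of the 9 was -0.48, beside -0.0016 over all tested genes. With the donor as a block, 2 of the 9 were called, Pik3ip1 and Foxo3, where 7.21% of all 13767 genes tested were called. With the donor as a block in the activated libraries alone 3 of the 9 were called, Pik3ip1, Foxo3 and Btg2, where 29.3% of the 12460 genes tested in that fit were called, so that the share of the members was near the background.

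**Figure D1:**
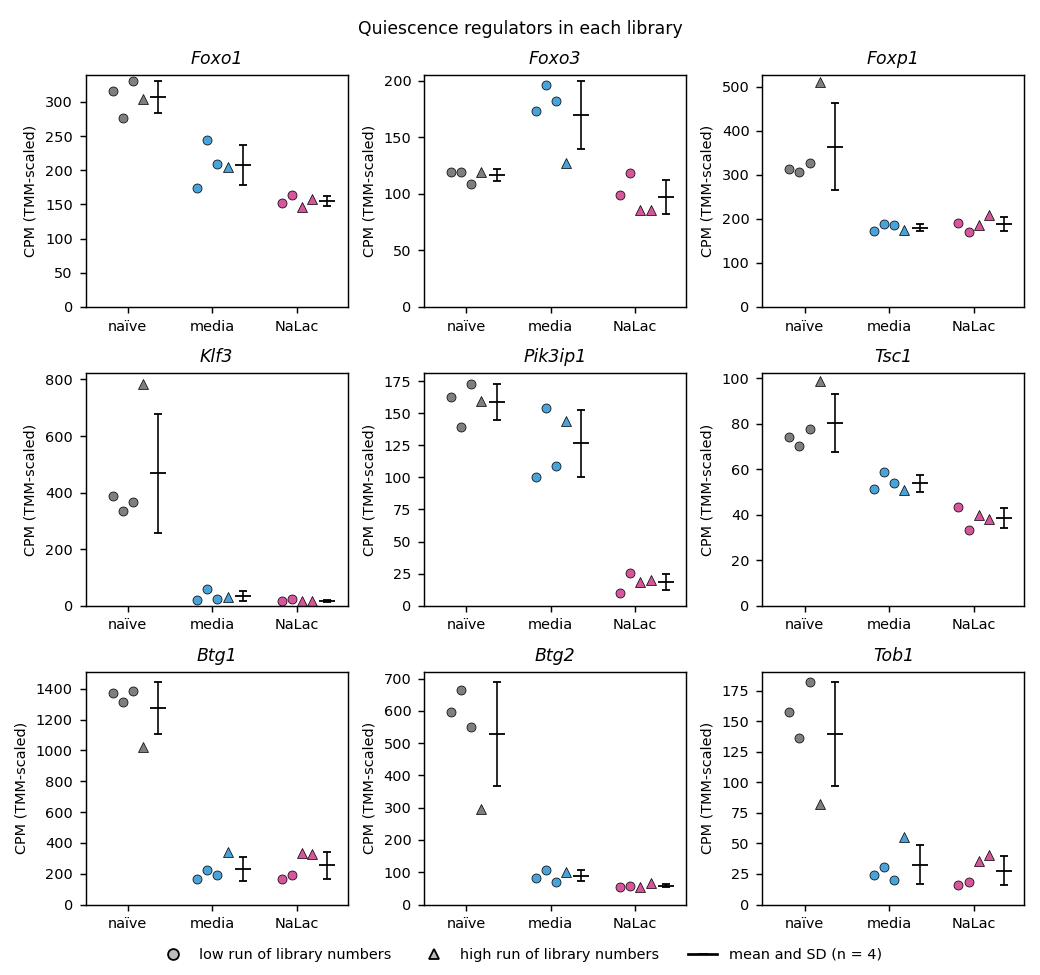
CPM (linear axes that start at 0, a scale of its own for each gene) of the 9 quiescence regulators in each of 12 libraries, by group. Circles are libraries of the low run and triangles of the high run, and bars give the mean and SD of 4 libraries. Pik3ip1 stays between 101 and 154 CPM in media and lies between 10.1 and 25.2 in NaLac, whereas Klf3, Btg1, Btg2 and Tob1 have their drop between naïve and media cells.

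**Figure D2:**
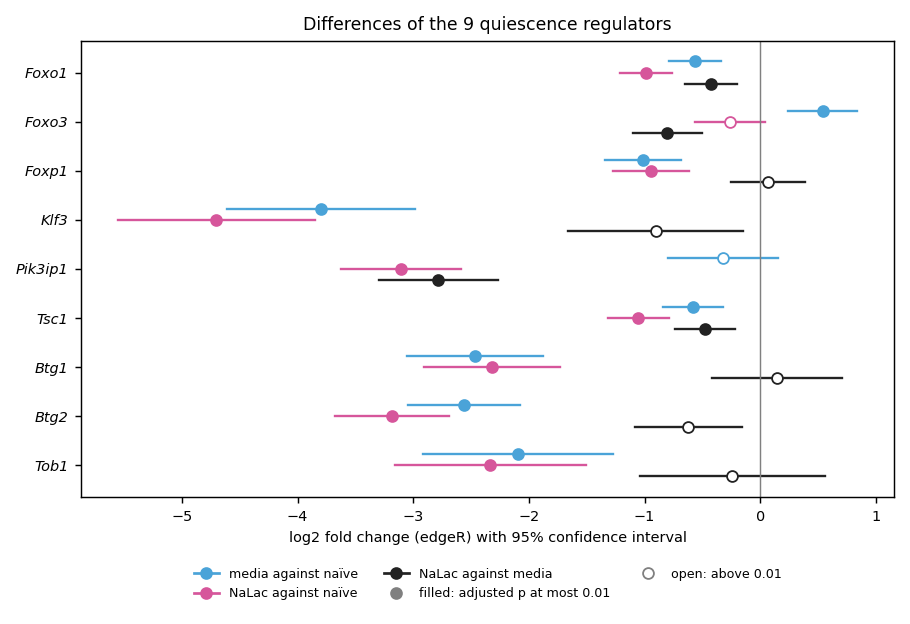
Log2 fold changes from edgeR with 95% confidence intervals for the 9 genes (rows) in 3 comparisons (colours). Filled points have an adjusted p of at most 0.01. Foxo3 is the only one of the 9 with a filled point right of 0 (0.54, media against naïve), and the largest difference between NaLac and media is that of Pik3ip1 (-2.78).

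Pik3ip1 encodes a transmembrane protein that binds and inhibits the catalytic subunit of PI3K. The gene (ENSMUSG00000034614) spans chr11:3330401-3342971 on the plus strand of GRCm38. Its level in naïve libraries 1 to 4 was 162, 139, 173 and 159.7 CPM. In media libraries 1 to 4 it was 101, 154, 108 and 144 CPM. In NaLac libraries 1 to 4 it was 10.1, 25.2, 18.4 and 19.8 CPM. Naïve and media libraries overlapped, and every NaLac library lay far below both. NaLac cells held 6.88-fold less than media cells (95% confidence interval 4.82 to 9.83, log2 fold change -2.78 ± 0.24 SE, adjusted p = 4.9e-05, edgeR), and of the 13767 tested genes 111, or 0.806%, had a lower fold change. The exact two-sided permutation test gave p = 0.0286, the smallest that 4 against 4 libraries allow. Within donors the fall was 9.91-fold, 4.31-fold and 7.23-fold, and the log2 difference was -2.88 within the low run and -2.90 within the high run. Media against naïve cells differed by -0.32 ± 0.22 on the log2 scale (adjusted p = 0.207, edgeR), with a confidence interval of -0.80 to 0.15. A noncoding gene on the other strand, Gm12592, overlaps 2.13% of the Pik3ip1 exons.

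Foxo3 is a FOXO factor that induces genes for apoptosis, autophagy and oxidant defence. The gene (ENSMUSG00000048756) lies at chr10:42181841-42276755 on the minus strand of GRCm38. The naïve libraries held 119, 119, 109 and 119 CPM. The media libraries held 173, 196, 183 and 127 CPM. The NaLac libraries held 99.3, 118, 86.0 and 86.0 CPM. Every media library thus lay above every naïve and every NaLac library, while naïve and NaLac libraries overlapped. Foxo3 was the 1 member that rose with activation in media (log2 fold change 0.54 ± 0.14 SE, adjusted p = 0.00371, edgeR), by 0.67 within the low run and by 0.09 within the high run, which has 1 naïve and 1 media library. That call was lost when naïve 1 (adjusted p = 0.0104), naïve 2 (0.0191), naïve 3 (0.0279), media 1 (0.0102), media 2 (0.0132) or media 3 (0.0124) was left out. NaLac against media gave a fall of 1.74-fold (log2 fold change -0.80 ± 0.14 SE, adjusted p = 0.000835, edgeR), which was called in all 24 alternative settings. Within the 3 donors the log2 difference was -0.80, -0.63 and -0.56. NaLac against naïve cells did not pass (log2 fold change -0.26, adjusted p = 0.105, edgeR).

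Foxo1, the FOXO factor that keeps up Il7r and Klf2 in naïve T cells, fell in both steps. The gene (ENSMUSG00000044167) lies at chr3:52268336-52353221 on the plus strand of GRCm38, and the antisense gene Gm20402 overlaps 7.78% of its exons. Naïve libraries 1 to 4 held 317, 276, 331 and 304 CPM. Media libraries 1 to 4 held 174, 244, 209 and 204 CPM. NaLac libraries 1 to 4 held 152, 164, 146 and 158 CPM. The 3 groups did not overlap, with naïve highest and NaLac lowest. Media cells were lower than naïve cells by a log2 fold change of -0.56 ± 0.10 SE (adjusted p = 0.000362, edgeR). NaLac cells were lower than media cells by a log2 fold change of -0.42 ± 0.10 SE (adjusted p = 0.00647, edgeR), and by -0.20, -0.35 and -0.37 within donors. This second call is near the threshold. It was lost with the donor as a block (adjusted p = 0.0665, and 0.0249 in the activated libraries alone) and with a block by title number (0.0150). It was also lost within the low run (0.0683), and without media 2 (0.0197), media 3 (0.0168), media 4 (0.0116), NaLac 1 (0.0185), NaLac 3 (0.0220) or NaLac 4 (0.0162).

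Foxp1 is a forkhead repressor that opposes FOXO1 at shared sites and holds naïve T cells at rest. The gene (ENSMUSG00000030067) lies at chr6:98925338-99522721 on the minus strand of GRCm38, and genes on the same strand overlap at most 2.18% of its exons. In naïve libraries 1 to 4 there were 313, 305, 326 and 510.4 CPM. In media there were 173, 188, 186 and 174 CPM. In NaLac there were 190.2, 171, 186 and 209 CPM. Media and NaLac libraries overlapped and all lay below the naïve ones. Foxp1 fell 2.02-fold in media against naïve cells (log2 fold change -1.01 ± 0.15 SE, adjusted p = 6.35e-05, edgeR) and 1.92-fold in NaLac against naïve cells (adjusted p = 8.99e-05, edgeR). NaLac against media differed by 0.07 ± 0.15 on the log2 scale (adjusted p = 0.752, edgeR), with a confidence interval of -0.25 to 0.39.

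Klf3, a Krüppel-like factor that represses transcription through the corepressor CtBP, had the largest fall of the 9 genes with activation. The gene (ENSMUSG00000029178) lies at chr5:64803388-64832901 on the plus strand of GRCm38, and Gm20033 on the other strand overlaps 3.59% of its exons. Naïve libraries 1 to 4 held 387, 333, 368 and 783 CPM. Media libraries 1 to 4 held 20.99, 59.4, 22.7 and 31.6 CPM. NaLac libraries 1 to 4 held 16.5, 22.6, 15.6 and 17.1 CPM. The activated libraries were far below the naïve ones, and media and NaLac libraries overlapped. Media cells held 13.9-fold less than naïve cells (log2 fold change -3.80 ± 0.37 SE, adjusted p = 2e-06, edgeR) and NaLac cells 26.0-fold less (adjusted p = 3.41e-07, edgeR). NaLac against media did not pass (log2 fold change -0.90 ± 0.35 SE, adjusted p = 0.0547, edgeR, confidence interval -1.66 to -0.15). Media 2 stood highest among the activated libraries, and without it the log2 fold change was -0.48 ± 0.29 SE (adjusted p = 0.235, edgeR). Within donors that difference was -0.35, -0.01 and -0.89.

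Tsc1 encodes hamartin, which stabilizes the TSC2 GTPase-activating protein that switches off RHEB upstream of mTORC1. The gene (ENSMUSG00000026812) lies at chr2:28641228-28691167 on the plus strand of GRCm38. Its naïve libraries held 74.2, 70.4, 77.9 and 98.9 CPM. Its media libraries held 51.5, 59.0, 53.8 and 50.8 CPM. Its NaLac libraries held 43.5, 33.1, 39.9 and 38.1 CPM. As for Foxo1, the 3 groups did not overlap and NaLac was lowest. The log2 fold change was -0.58 ± 0.12 SE for media against naïve (adjusted p = 0.000882, edgeR) and -0.48 ± 0.12 SE for NaLac against media (adjusted p = 0.00782, edgeR). The second call was lost with the donor as a block (adjusted p = 0.0775, and 0.0138 in the activated libraries alone) and with a block by title number (0.0155). It was also lost within the low run (0.0178), and without media 1 (0.0141), media 2 (0.0268), media 3 (0.0188), media 4 (0.0109), NaLac 2 (0.0223), NaLac 3 (0.0176) or NaLac 4 (0.0214). The log2 difference within donors was -0.24, -0.70 and -0.42.

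Btg1, Btg2 and Tob1, the 3 adaptors of the deadenylase machinery, fell together on activation. Their log2 CPM ran closely alongside each other over the 12 libraries (Pearson's r 0.938 for Btg1 and Btg2, 0.974 for Btg1 and Tob1, 0.934 for Btg2 and Tob1), which share the large step from naïve to activated cells. Btg1 and Tob1 were the closest of all pairs of members. Some pairs beyond the adaptors (0.940 for Klf3 and Btg2, 0.940 for Foxo1 and Klf3) ran as closely as Btg2 did with Btg1 or Tob1. Others did not (-0.298 for Foxo3 and Btg1). Closeness thus does not set the 3 adaptors apart as a group. The 250 bases before the RefSeq transcription start of each adaptor are shown (GRCm38.p6, 5′ to 3′ on the strand of the gene). Capitals mark 3 motifs on either strand: GTAAACA (reverse complement TGTTTAC), a FOXO consensus, GGGCGG (reverse complement CCGCCC), the GC box, and TGACGTCA, the palindromic cyclic AMP response element. The motifs were chosen with the windows in view.
Btg1, chr10:96616751-96617000, plus strand: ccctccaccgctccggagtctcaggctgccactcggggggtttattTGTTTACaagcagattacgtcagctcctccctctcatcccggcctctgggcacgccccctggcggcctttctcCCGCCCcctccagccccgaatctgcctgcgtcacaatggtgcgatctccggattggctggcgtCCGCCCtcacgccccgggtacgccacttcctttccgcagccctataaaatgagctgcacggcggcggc
Btg2, chr1:134079156-134079405, minus strand: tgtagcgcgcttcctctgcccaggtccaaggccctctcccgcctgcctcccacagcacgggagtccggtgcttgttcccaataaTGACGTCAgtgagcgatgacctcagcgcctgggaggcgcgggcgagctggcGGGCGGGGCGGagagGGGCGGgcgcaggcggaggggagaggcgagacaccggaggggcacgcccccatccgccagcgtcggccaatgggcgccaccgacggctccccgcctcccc
Tob1, chr11:94211204-94211453, plus strand: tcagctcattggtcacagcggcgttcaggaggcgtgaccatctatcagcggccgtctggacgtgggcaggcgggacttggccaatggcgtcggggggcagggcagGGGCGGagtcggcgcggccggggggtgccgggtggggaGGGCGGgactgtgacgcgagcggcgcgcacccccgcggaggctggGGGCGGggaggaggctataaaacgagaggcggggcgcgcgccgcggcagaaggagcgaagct
The FOXO consensus occurred in the window of 1 of the 9 members, Btg1, with its first base 204 bases before the start, and in 3.17% of 32851 windows of this length. The cyclic AMP response element occurred in 1 of 9, Btg2, 166 bases before the start, and in 1.55% of all windows. The GC box occurred in 7 of 9 members (Foxp1 has 3 windows, and the 9 genes 11), and in 32.7% of all windows. Members are counted by gene and the shares are by window, so that they are not like measures. A match describes these letters and is not a measured binding site.

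Btg1 had the highest length-corrected level of the 9 genes in every group, at 821 ± 94.5 TPM in naïve, 150.4 ± 45.0 in media and 151 ± 46.1 in NaLac cells (SD, n = 4). Its CPM were 1372, 1313, 1386 and 1023 in naïve libraries 1 to 4. In media libraries 1 to 4 they were 167, 222, 192 and 343. In NaLac libraries 1 to 4 they were 168, 192, 332 and 331. The level split by library run and not by treatment: the 3 activated libraries of the high run held 331 to 343 CPM and the 5 of the low run 167 to 222. Btg1 fell 5.52-fold in media against naïve cells (log2 fold change -2.46 ± 0.27 SE, adjusted p = 5.24e-06, edgeR), by -2.82 within the low run and -1.58 within the high run. NaLac against media was 0.15 ± 0.26 on the log2 scale (adjusted p = 0.691, edgeR, confidence interval -0.41 to 0.71), and it was 0.01, 0.00 and -0.05 within donors. The gene (ENSMUSG00000036478) lies at chr10:96617006-96622809 of GRCm38.

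Btg2, an immediate early gene in many cells and a target of p53, was the next highest by TPM in each group. Naïve libraries 1 to 4 held 597, 666, 549 and 297 CPM. Media libraries 1 to 4 held 80.9, 106, 70.3 and 100.002 CPM. NaLac libraries 1 to 4 held 55.2, 57.1, 54.6 and 65.4 CPM. No NaLac library reached the lowest media library, yet the difference missed the threshold (log2 fold change -0.62 ± 0.21 SE, adjusted p = 0.0341, edgeR, exact permutation p = 0.0286, the smallest possible). It was called with DESeq2 (adjusted p = 0.00923), with the media and NaLac libraries fitted alone (0.0026), with the donor as a block in the activated libraries alone (0.00607) and without naïve 4 (0.00181). Within donors the log2 difference was -0.55, -0.30 and -0.61. The fall from naïve cells was 5.90-fold in media (log2 fold change -2.56 ± 0.22 SE, adjusted p = 6.7e-07, edgeR) and 9.08-fold in NaLac (adjusted p = 9.79e-08, edgeR). The gene (ENSMUSG00000020423) lies at chr1:134075170-134079120 of GRCm38.

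Tob1, which is known to restrain T cell proliferation and cytokine transcription, resembled Btg1 in its split by library run. In order of number the naïve libraries held 158, 136, 182 and 82.4 CPM. Those of media held 24.2, 30.9, 20.5 and 55.4 CPM. Those of NaLac held 16.2, 18.4, 35.9 and 40.2 CPM. The activated libraries of the high run (35.9 to 55.4) all exceeded those of the low run (16.2 to 30.9), and the other 7 members overlapped between the runs. The fall in media against naïve cells was 4.27-fold (log2 fold change -2.09 ± 0.38 SE, adjusted p = 0.000304, edgeR), by -2.66 within the low run and by -0.57 within the high run, where there is 1 library of each kind. NaLac against media gave a log2 fold change of -0.24 ± 0.37 SE (adjusted p = 0.645, edgeR, confidence interval -1.04 to 0.56). It was -0.52 within the low run and -0.54 within the high run. The gene (ENSMUSG00000037573) lies at chr11:94211454-94215495 of GRCm38.

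**Figure D3:**
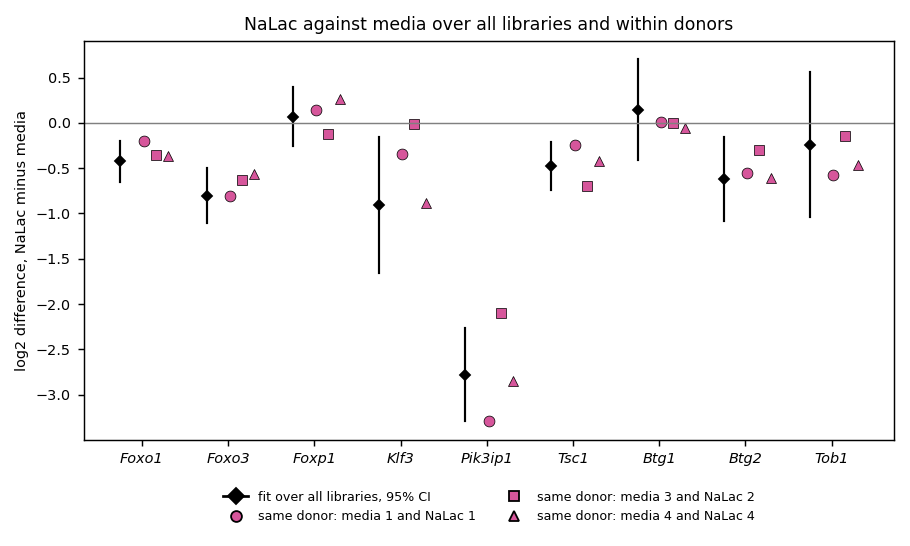
Log2 difference of NaLac minus media for each gene. Black diamonds with lines are the edgeR estimate over all libraries with its 95% confidence interval, and pink symbols are differences between libraries of the same donor (3 donors). All 3 pink symbols lie below 0 for 7 genes, while Btg1 lies between -0.05 and 0.01 and Foxp1 between -0.13 and 0.27.

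In the libraries of the 3 donors that gave both conditions, 7 of the 9 genes were lower with NaLac in 3 of 3 donors: Pik3ip1, Foxo3, Foxo1, Tsc1, Btg2, Tob1 and Klf3. Of all tested genes, 32.8% were lower in 3 of 3 donors. For Klf3 the smallest of these differences was -0.01. Btg1 and Foxp1 were higher in 2 donors and lower in 1. Naïve 4, the single naïve library of the high run, stood apart from the other naïve libraries for several members. Klf3 was 2.16 times and Foxp1 1.62 times the mean of the other 3, while Btg2 was 2.03 times, Tob1 1.93 times and Btg1 1.33 times below it. Without naïve 4 the log2 fold change of media against naïve cells was -3.44 for Klf3 and -0.81 for Foxp1, and both stayed called.

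By TPM the order of the 9 genes changed between the groups. In naïve cells it was Btg1, Btg2 (651), Tob1 (207), Klf3 (144), Pik3ip1 (127), Foxo1 (121), Foxp1 (90.8), Foxo3 (52.6) and Tsc1 (23.3), given as mean TPM. Neighbours in this order whose libraries did not overlap were Btg2 and Tob1, Foxp1 and Foxo3, and Foxo3 and Tsc1. In media the mean TPM were 113 for Btg2, 102 for Pik3ip1, 83.1 for Foxo1, 78.1 for Foxo3, 49.0 for Tob1, 45.4 for Foxp1, 15.8 for Tsc1 and 10.4 for Klf3, and of the neighbours only Foxp1 and Tsc1 did not overlap. In NaLac they were 66.8 for Btg2, 56.5 for Foxo1, 43.3 for Foxp1, 40.8 for Foxo3, 37.7 for Tob1, 13.5 for Pik3ip1, 10.3 for Tsc1 and 5.05 for Klf3. Pik3ip1 moved from the third place in media to the seventh in NaLac, and its libraries there were all below those of its upper neighbour Tob1. The other neighbours apart in NaLac were Btg1 and Btg2, Foxo1 and Foxp1, and Tsc1 and Klf3.

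Around the members, a list of 20 known FOXO target genes held 10 that fell and 1 that rose in NaLac against media. The share called was 55%, beside 25.1% of all tested genes in either direction and 11.1% as lower. The median log2 fold change of the list was -0.74, beside -0.0016 over all tested genes. Bcl2l11, the proapoptotic BIM, fell from 165 ± 40.6 to 41.3 ± 7.60 CPM (log2 fold change -1.997 ± 0.37 SE, adjusted p = 0.00134, edgeR). Bcl6 fell from 13.2 ± 5.87 to 3.29 ± 1.98 CPM, and Sod2, the mitochondrial superoxide dismutase, rose by 0.76. With the donor as a block 6 of the 20 were called, where 7.21% of all tested genes were, and Bcl2l11 (adjusted p = 0.0431) and Bcl6 (0.0273) were not. Bcl2l11 and Bcl6 stayed called with the donor as a block in the activated libraries alone. In media against naïve cells 7 of the 20 fell and 3 rose, a share of 50% beside 57.5% of all tested genes. S1pr1, which lets T cells leave lymph nodes, fell by 3.06 on the log2 scale, while Ddit4, an mTORC1 inhibitor, rose by 2.29 (adjusted p 0.00145, and 0.0121 with the donor as a block) and Gabarapl1, an autophagy gene, by 1.59.

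Of 23 PI3K and AKT genes, 6 fell and 2 rose in NaLac against media, with a median of -0.10. The share called was 34.8%, beside 25.1% of all tested genes. Among those that fell was Pik3r1, the p85 regulatory subunit, which went from 209.6 ± 43.2 to 93.9 ± 6.10 CPM (log2 fold change -1.16 ± 0.13 SE, adjusted p = 9.06e-05, edgeR). Akt1, a kinase downstream of PI3K, rose from 158 ± 14.5 to 252 ± 12.6 CPM (log2 fold change 0.67). Both calls held in all 24 alternative settings. Pik3r2, another regulatory subunit, rose by 0.62 (adjusted p = 0.0778 with the donor as a block). Under the donor block 3 of the 23 were called, where 7.21% of all tested genes were. Pik3r2 stayed called with the block in the activated libraries alone. In media against naïve cells 7 fell and 3 rose, among them Pik3cb (-2.03) and Pik3cg (1.04), which encode catalytic subunits. The share called there was 43.5%, below the 57.5% of all tested genes.

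Of 34 genes of the TSC and mTORC1 machinery, 4 rose and 2 fell in NaLac against media, with a median of 0.16. The share called was 17.6%, below the 25.1% of all tested genes. The largest rises were those of Sesn2 (1.14), a stress-induced inhibitor of mTORC1, and Rraga (1.09), a Rag GTPase that recruits mTORC1 to the lysosome. The 2 that fell were Sesn3 (-1.21), another sestrin, and Rictor (-1.01), the defining subunit of mTORC2. Under the donor block 2 of the 34 were called, where 7.21% of all tested genes were, and the adjusted p of Sesn2 was 0.0172 and of Rictor 0.0204. Sesn2 and Rictor stayed called with the block in the activated libraries alone. Tsc2, the partner of Tsc1, differed by 0.09 between NaLac and media (adjusted p = 0.622, edgeR). In media against naïve cells 8 of the 34 rose and 6 fell, with Eif4ebp1, a translation repressor under mTORC1, up by 3.38 and Tbc1d7, the third subunit of the TSC complex, up by 2.63. The share called there was 41.2%, below the 57.5% of all tested genes.

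Of 17 genes of the CCR4-NOT and PAN deadenylases and their poly(A)-binding partners, 3 rose and 3 fell in NaLac against media. The share called was 35.3%, beside 25.1% of all tested genes. Pabpc4 (0.95) and Cnot11 (0.69) rose, and Pan2 (-0.95) and Cnot6l (-0.89), both deadenylase genes, fell. With the donor as a block 2 of the 17 were called, where 7.21% of all tested genes were, and the adjusted p of Pabpc4 was 0.0168 and of Cnot11 0.0236. Pabpc4 and Cnot11 stayed called with the block in the activated libraries alone. In media against naïve cells 4 rose and 2 fell, with Cnot9 up by 1.29 and Pan3 down (log2 fold change -1.18). The share called there was 35.3%, below the 57.5% of all tested genes. Tob2, the closest relative of Tob1, fell from 192 ± 37.3 CPM in naïve to 77.4 ± 23.6 in media cells (log2 fold change -1.31, adjusted p = 0.000196, edgeR), and differed by 0.36 between NaLac and media (adjusted p = 0.217, edgeR).

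Of the other forkhead genes, 12 of 16 were tested, and 3 passed the test in NaLac against media, all lower. These are 25%, beside 25.1% of all tested genes in either direction and 11.1% as lower. Foxo4, the third FOXO factor of T cells, was among the 3 (log2 fold change -0.45, adjusted p = 0.00528, edgeR, and 0.0448 with the donor as a block), with Foxj2 (-0.67, and 0.0367 for its adjusted p with the block) and Foxm1 (-0.56, and 0.0934). With the block in the activated libraries alone Foxj2 and Foxm1 stayed called and Foxo4 did not (adjusted p = 0.0129, edgeR). Of other KLF genes and KLF3 corepressors, 15 of 19 were tested, and 3 rose in NaLac against media: Klf7 (0.74), Klf16 (0.67) and Ctbp1 (0.51), a corepressor of KLF3. The share called was 20%, below the 25.1% of all tested genes. Each of the 3 lost its call under the donor block, at adjusted p-values of 0.0893, 0.0692 and 0.0124. All 3 stayed called with the block in the activated libraries alone. Klf2, a FOXO1 target that maintains quiescence, fell from 1804 ± 465 CPM in naïve to 107 ± 67.7 in media cells (adjusted p = 5.91e-05, edgeR). In NaLac cells Klf2 was at 27.2 ± 17.8 CPM, a log2 fold change against media of -1.98 (adjusted p = 0.0134, edgeR, and 0.00605 with the donor as a block).

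Of 30 further genes tied to quiescence or the naïve state, 10 passed the test in NaLac against media, all lower, with a median log2 fold change of -0.47. These are 33.3%, beside 25.1% of all tested genes in either direction and 11.1% as lower. With the donor as a block 6 of the 30 were called, where 7.21% of all tested genes were. The largest fall was that of Runx1 (log2 fold change -2.03, adjusted p = 6.36e-05, edgeR), at 13.5 ± 3.72 CPM in media and 3.30 ± 0.558 in NaLac cells. In media against naïve cells 15 of the 30 fell and 2 rose, the latter being Cdkn1a (3.52), which encodes p21, and Rb1 (1.08), the retinoblastoma protein gene. The share called there was 56.7%, beside 57.5% of all tested genes. This list shares Klf2, S1pr1 and others with the FOXO targets, so that the lists are not independent. Marker sums moved with NaLac too. Of the 8 B cell markers 4 were called as lower than in media, and of the 6 CD8 T cell markers 3, where 11.1% of all tested genes were. The 5 naïve T cell markers, 2 of them called as lower, summed to 1255 to 2042 CPM in media and 841 to 1030.3 in NaLac libraries. The 6 activated T cell markers summed to 4286 to 5196 CPM in media and 7447 to 9592 in NaLac libraries. Of these 6, 0 were called in either direction, and their median log2 fold change was 0.31. The part of all these markers in the NaLac results of the members and of the lists was not tested.

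**Figure D4:**
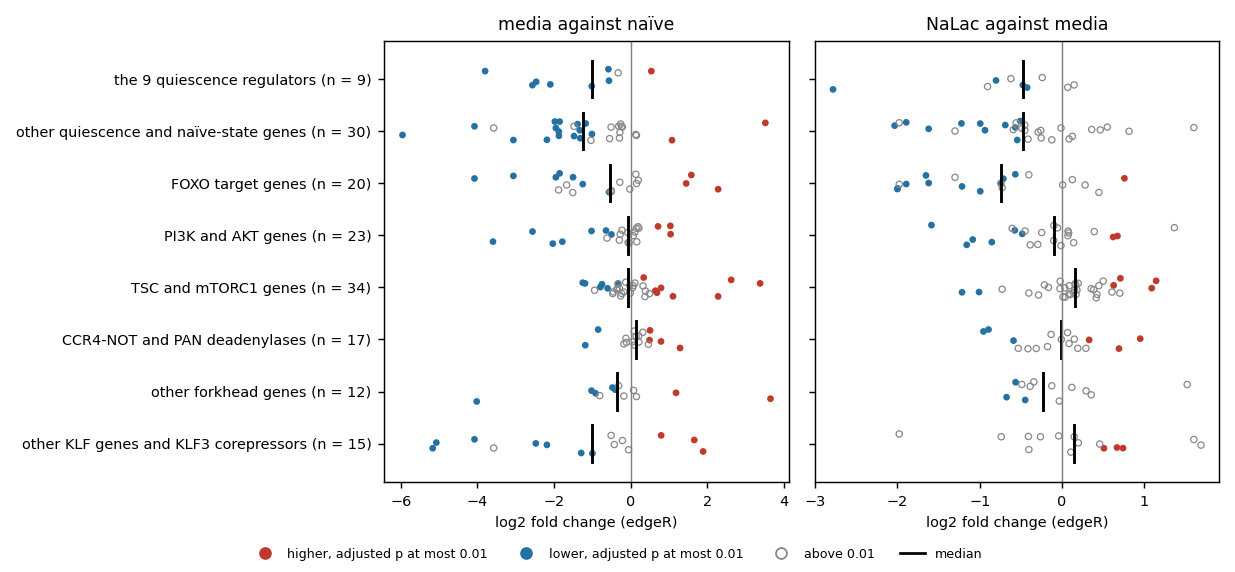
Log2 fold changes (edgeR) of the members and of 7 lists of related genes in media against naïve (left) and NaLac against media (right). Each point is a gene, filled where the adjusted p is at most 0.01, and the black bar is the median. In the right panel the medians of the members (-0.48), of the further quiescence genes (-0.47) and of the FOXO targets (-0.74) lie left of 0. Those of the other forkhead genes (-0.23), the PI3K and AKT genes (-0.10) and the deadenylases (-0.0083) do so too. The medians of the TSC and mTORC1 genes (0.16) and of the KLF genes and KLF3 corepressors (0.15) lie right of 0.

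Set against naïve cells, NaLac cells had 8 of the 9 members lower, where 65% of all tested genes were called in either direction and 32% as lower. The comparisons share libraries and are not independent. The falls ran from 1.92-fold for Foxp1 to 26.0-fold for Klf3, and Pik3ip1, which did not pass in media against naïve cells, was 8.62-fold lower (adjusted p = 1.78e-07, edgeR). The log2 fold change was -0.99 for Foxo1, -1.06 for Tsc1, -2.32 for Btg1, -2.33 for Tob1 and -3.18 for Btg2. Tob1 fell by 3.18 within the low run and by 1.11 within the high run.

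The genes whose log2 CPM ran most like each member over the 12 libraries were taken from 9237 genes with a mean of at least 10 CPM. For Pik3ip1 they were Mxd4 (Pearson's r 0.990) and Aldh6a1 (0.985), and for Foxo3 Ppp4r1l-ps (0.961) and 2010315B03Rik (0.956). Few genes followed the pattern of Foxo3, with 27 above an r of 0.9, beside 250 for Pik3ip1, 337 for Tob1, 496 for Foxp1, 630 for Btg1, 656 for Tsc1, 818 for Foxo1, 956 for Btg2 and 1051 for Klf3. The closest genes were Herc3 (0.992) for Foxo1, Cpsf7 (0.993) for Foxp1, Stk38 (0.997) and Lef1 (0.994) for Klf3, Myo9b (0.994) for Tsc1, Tpt1 (0.992) for Btg1, Slc9a9 (0.994) for Btg2 and Dnajb9 (0.987) for Tob1. The points share the step between the 3 groups and the library runs, so that these values describe likeness only.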

How the data were processed

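Poly(A) RNA of 12 libraries was sequenced as stranded TruSeq single-end reads. Per the study's methods and processing notes, the authors demultiplexed with bcl2fastq 2.20.0.422, aligned with STAR 2.7.5b and counted reads per Ensembl gene with featureCounts. Whether reads were counted by strand is not given in the sources used here. The deposited table holds raw counts per gene and library and gene lengths, for 13780 genes, and had been limited to expressed genes.

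A gene was tested if 3 or more libraries reached 1 CPM (13767 genes). After TMM scaling, edgeR 4.0.16 (R 4.3.3) fitted the 12 libraries in 1 quasi-likelihood model of group means without a block. Tests were two-sided, p-values were adjusted by Benjamini-Hochberg across every gene tested, and calls were made at 0.01. Standard errors are the log2 fold change over the square root of F. Exact permutation tests ran over 70 arrangements of 4 against 4 libraries on log2 CPM (prior count 2). The biological coefficient of variation, from the common dispersion of all tested genes, was 23.5%. By the record and the donor tags the replicates of a group came from separate mice. All libraries were kept.

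Members and gene lists were chosen with earlier results of these data known. All members are named. From each list at most 2 increases and 2 decreases per comparison are named, the largest among genes called, without overlap between groups and with a mean of at least 5 CPM in either group, besides close relatives of members (Foxo4, Tob2, Tsc2, Klf2) and Ctbp1. Xcr1 was named after its values were seen. Some results that the rule would name are not reported here. Alternatives were DESeq2 1.42.0, limma 3.58.1 (voom), other scalings, filters, blocks and thresholds, and leaving out each library.

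Donor tags restart between runs of library numbers and were read within each run. Media and NaLac libraries of 1 donor deviated together from their group means (r 0.374, 0.211 and 0.553). For those sharing a title number r was 0.374, 0.297, 0.0038 and 0.553. Media 4 and NaLac 3, from different donors of the same run, had an r of 0.371, so that the pairing by donor rests on the tags in the labels, and donor and run are not told apart by r. Coordinates are from GENCODE M21 (GRCm38) and promoter windows from RefSeq (GRCm38.p6), where all 9 members had a window. Table lengths equal the exon union for all 9.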

Additional observations from a re-analysis of the deposited data

Results flagged for a closer look

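Dixon's test of a library far from its group of 4 was applied to the CPM of the 9 genes in each of 3 groups. It picked out 3 of 27 groups, and about 1 in 20 is picked out by chance. All 3 are groups of naïve libraries. Klf3 was at 783 CPM in naïve 4, where the gap to the next library was 0.880 of the range of the group. Foxp1 was at 510.4 CPM in the same library, with a gap of 0.899 of the range. Naïve 4 is the only naïve library of the high run, so that the library and the run cannot be told apart. It also had the lowest summed CD8 T cell markers (1991 CPM) and the highest summed naïve T cell markers (6131 CPM) of the naïve libraries, and the part of these in the 2 values was not tested. Foxo3 was at 109 CPM in naïve 3, with a gap of 0.956 of a range that spans 109 to 119 CPM.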

How the results depend on the processing

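Of 27 results of single members (9 genes in 3 comparisons), 20 kept their direction and their side of the threshold in all alternatives, 7 changed in at least 1 and 3 of those turned direction. The members called in NaLac against media numbered 4, and 2 with the replicate block by title number, 2 with the replicate block by donor and 2 in the low library run alone. Leaving out 1 library gave 2 to 5: 2 without media 2, media 3, media 4, NaLac 3 or NaLac 4, and 5 without naïve 4. All genes called in that comparison numbered 3451 of 13767, or 25.1%. With the replicate block by title number they numbered 3256 of 13767, so that the share of the members there, 2 of 9, was near the background. With the replicate block by donor there were 992, and 3654 when the block was fitted to the activated libraries alone, an alternative added after seeing the data. There were 5461 at an adjusted p of 0.05 and 2077 in the low run alone (also added later). Leaving out 1 library gave 2252 to 4845 genes, the lowest without media 2. The genes called numbered 2669 without media 3, 3066 without media 4, 2319 without NaLac 3, 2391 without NaLac 4 and 4845 without naïve 4. The cause was not tested.

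Results that turned direction were small and not called. Btg1 in NaLac against media was -0.015 with the donor block and -0.0097 with the block in the activated libraries alone, -0.094 in the low run, and between -0.0098 and 0.40 when leaving out 1 library. Foxp1 was -0.0046 in the low run and -0.0017 with a term for the run, and Tob1 0.13 without media 4 (lowest value when leaving out 1 library -0.49). Tsc2 was -0.0045 with the donor block and -0.039 in the low run. The Foxo1 call was lost in 10 and the Tsc1 call in 11 of 24 alternatives, that of Foxo3 in media against naïve cells in 6 of 23, and Btg2 was called in 4 of 24.

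With 4 libraries a group, the NaLac against media differences of Foxo1 (-0.42 ± 0.10 SE) and Tsc1 (-0.48 ± 0.12 SE) lie at the edge of what is called. The high run has 1 naïve and 1 media library. Counts of members were 198 or more in every library. The parts of counting error and of spread between libraries in these values were not tested.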
